A study of Mus musculus with 6 samples.

Results

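The regions described here are the open chromatin regions around 9 genes for lipid-sensing and energy-metabolism nuclear receptors: Ppara, Ppard and Pparg (the peroxisome proliferator-activated receptors), Rxra and Rxrb (retinoid X receptors), Nr1h2 and Nr1h3 (the liver X receptors LXR beta and LXR alpha), and Esrra and Esrrg (oestrogen-related receptors alpha and gamma). A region was assigned to a receptor gene when at least 1 of its peak summits lay in the gene body or within 50 kb of it in the GRCm38 annotation of GENCODE. This gave 220 receptor gene regions of 99359 in all: 42 at Ppara, 20 at Ppard, 6 at Pparg, 30 at Rxra, 13 at Rxrb, 16 at Nr1h2, 6 at Nr1h3, 19 at Esrra and 68 at Esrrg.

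PPARs are switched on by fatty acids and their derivatives, and LXRs by oxidised cholesterol. Both bind DNA as pairs with an RXR, usually at direct repeats of the string AGGTCA, and PPAR alpha drives fatty acid oxidation, on which the proximal tubule relies for energy. ERRs have no established natural ligand, bind an extended form of the same string, and act with PGC-1 coactivators on genes of mitochondrial oxidation.

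The data were peak lists from ATAC-seq, an assay that uses a transposase to cut and tag DNA where chromatin is open. Each of the 6 libraries was made from 3 hand-dissected S1 proximal tubules, the first stretch of the tubule after the glomerulus. The mice were wild-type (WT) male C57BL/6 from Taconic, aged 7 weeks, and the libraries fall into 2 groups of 3: sham-operated mice (Sham) and mice from which 1 kidney had been excised (UNx, unilateral nephrectomy), both sampled at 24 h. Whether the 3 libraries of a group are 3 mice is not in the labels, so every p-value here measures only the spread between these libraries, which may be technical.

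The deposited lists held 77355 to 100999 peaks, and the sequencing depth behind them is unknown because they hold no read counts. All lists were shortened to the 77355 strongest, and a region's level in a library is its percentile rank within that list by the authors' −log10 q: near 100 for the strongest peaks and 0 where the region was not among those kept. All 17 S1 proximal tubule marker genes had a promoter region in all 6 lists; at an unadjusted p under 0.05, 0 were higher in UNx and 2 lower, without overlap: Cubn (88.3, 95.0 and 89.2 in Sham; 79.1, 86.8 and 86.8 in UNx) and Lrp2 (95.5, 96.5 and 96.7; 93.2, 94.1 and 91.1). Of 12 markers of the loop, distal tubule and collecting duct, 7 had a promoter region, and none was found for Slc12a3, Aqp2, Pvalb, Scnn1b or Slc4a1. Of the 5 tested, 0 were higher and 2 lower, again without overlap: Slc12a1 (57.9, 52.4 and 60.2 in Sham; 38.2, 32.9 and 19.4 in UNx) and Scnn1g (90.8, 92.4 and 95.7; 89.0, 86.1 and 85.4). The limma adjusted p of these 4 genes ran from 0.131 to 0.260, and the summed percentile of both lists overlapped between the operations (1375 to 1389 in Sham and 1364 to 1381 in UNx for S1; 348 to 372 and 323 to 389 for the later segments). Each list also held 1 gene higher in UNx without overlap, at an unadjusted p over 0.05. These were Pdzk1 for S1 (72.5, 70.4 and 71.4 in Sham, then 74.6, 77.8 and 82.1 in UNx) and Aqp3 for the later segments (79.7, 83.3 and 81.4, then 87.3, 83.6 and 86.1). In mean, 8 of the 17 S1 markers and 3 of the 5 tested later markers were higher in UNx. Of 14 endothelial, podocyte, stromal and immune markers, 8 had one and 1 was in all 6 lists; their summed percentile ranged from 103 to 121 in Sham and from 56.9 to 82.4 in UNx, and Pdgfrb, Tagln, Acta2, Ptprc, Cd68 and Csf1r had none. These marker differences moved with the operation, and their part in the results below was not tested. In tissue pools such as these, fewer cells with an open region and less opening per cell cannot be told apart.

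Sequences are shown for the regions on which the comparison turns, as the plus strand of GRCm38 around the strongest summit, left to right, leaving out annotated exons. Capitals mark matches to the strings searched, which were the receptor core AGGTCA, its direct repeat with a spacing of 1 base (AGGTCANAGGTCA, the PPAR-RXR and HNF4 type), with 4 bases (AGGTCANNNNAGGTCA, the LXR-RXR type), the ERR element TCAAGGTCA and the E-box CACGTG. Both strands were read over 200 bases centred on the summit, and every repeat and ERR element also contains the core. The first pair are the introns of Rxra and Esrrg that passed the test after UNx, and neither contains any of these strings:
Rxra intron, chr2:27686433-27686632: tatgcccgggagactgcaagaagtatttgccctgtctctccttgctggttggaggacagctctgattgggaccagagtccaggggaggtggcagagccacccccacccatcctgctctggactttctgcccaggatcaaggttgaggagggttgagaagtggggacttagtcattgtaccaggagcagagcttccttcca
Esrrg intron, chr1:187610523-187610722: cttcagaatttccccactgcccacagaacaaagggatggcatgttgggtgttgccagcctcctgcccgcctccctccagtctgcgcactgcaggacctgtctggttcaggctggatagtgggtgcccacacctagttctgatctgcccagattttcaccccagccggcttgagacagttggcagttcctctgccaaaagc
The next pair are the promoters at which Sham and UNx did not overlap, both rich in G and C and again without a match. The Ppara stretch ends at the first start of its coding transcripts and lies inside the annotated gene, which begins at chr15:85734983:
Ppara promoter up to the first start, chr15:85735466-85735563: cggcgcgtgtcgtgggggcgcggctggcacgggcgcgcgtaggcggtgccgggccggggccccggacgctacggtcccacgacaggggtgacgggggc
Rxra promoter, chr2:27676904-27677103: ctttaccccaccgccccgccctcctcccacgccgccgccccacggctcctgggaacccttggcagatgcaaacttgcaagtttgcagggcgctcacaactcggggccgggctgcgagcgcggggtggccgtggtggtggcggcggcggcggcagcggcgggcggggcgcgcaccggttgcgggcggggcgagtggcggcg
The last 3 hold the longer strings, an ERR element upstream of Esrra and the only direct repeats of the 1-base type among the tested receptor gene regions:
Esrra upstream region, chr19:6922329-6922370: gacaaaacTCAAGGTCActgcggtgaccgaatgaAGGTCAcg
Esrrg intron with a direct repeat, chr1:187826952-187827151: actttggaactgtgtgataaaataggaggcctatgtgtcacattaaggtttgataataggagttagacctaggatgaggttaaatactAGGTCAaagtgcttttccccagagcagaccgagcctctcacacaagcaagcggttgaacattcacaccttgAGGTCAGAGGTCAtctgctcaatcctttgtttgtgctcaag
Downstream of Rxra, chr2:27772927-27773126: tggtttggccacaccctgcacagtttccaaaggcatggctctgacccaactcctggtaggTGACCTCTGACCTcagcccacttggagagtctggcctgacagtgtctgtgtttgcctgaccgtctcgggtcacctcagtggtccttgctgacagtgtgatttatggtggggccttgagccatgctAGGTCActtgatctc

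The core string occurred in 35 of the 174 tested receptor gene regions (20.1%), against 19.3% of all 74781 tested regions. A direct repeat with 1 base between was found in 2 receptor gene regions (1.15%), against 43 regions in all (0.0575%), and the repeat with 4 bases between in 0, against 8 in all (0.0107%). The ERR element was in 3 (1.72%, at Esrra, Esrrg and Rxrb) against 0.505%, and the E-box in 7 (4.02%) against 4.73%. These are counts of letters and not of binding sites, and the 2 direct repeat regions are named because of their strings, after those had been seen. The repeat downstream of Rxra reads TGACCTCTGACCT on the plus strand and starts 40 bp before the summit, in a region 10070 bp beyond the annotated 3′ end of Rxra. Its ranks were 17.2, 1.33 and 22.6 in Sham and 38.1, 38.8 and 46.0 in UNx, so the groups did not overlap, but the limma adjusted p was 0.185. The repeat in the Esrrg intron starts 59 bp after its summit, and its ranks were 0, 5.46 and 0 in Sham and 12.5, 0 and 46.3 in UNx, which overlapped.

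Between Sham and UNx, an intron of Rxra and an intron of Esrrg passed the test, both higher in UNx, and no region classed as a receptor promoter did. The Esrrg intron does lie 927 bp from another annotated Esrrg start. Of the 220 regions, 145 (65.9%) were in all 6 lists, against 53.4% of all regions, and 174 were in at least 3 lists and were tested; the other 46 were not. A region that reaches 3 lists only through 1 operation had to differ, so the counts below describe tested regions and not all members. limma called 2 of the 174 at an adjusted p under 0.05, both higher in UNx, against a background of 0.788% of all tested regions in either direction (589 of 74781) and 0.435% higher. At an unadjusted p under 0.05 there were 36 (20.7%), 23 higher and 13 lower, against 18.6% (9.08% higher and 9.5% lower). Sham and UNx libraries did not overlap in 43 (24.7%), 26 higher and 17 lower, against 23.7% (12% higher and 11.7% lower). Both shares lay near the background and are not a result about the receptor genes. The median difference was 1.86 percentile points, against -0.0112 over all tested regions.

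**Figure D1:**
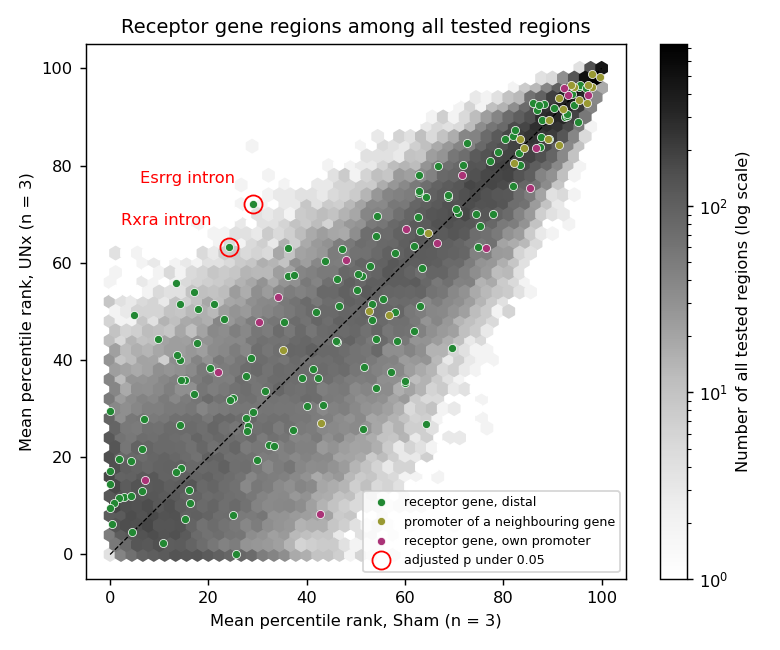
Mean percentile rank of each tested region in the 3 Sham libraries (horizontal) and the 3 UNx libraries (vertical); grey hexagons count all 74781 tested regions on a log scale, coloured points are the 174 receptor gene regions by class, and the dashed line marks equal ranks. The circled points are the introns of Rxra and Esrrg that passed the test, with means of 24.2 and 29.1 in Sham and 63.2 and 72.0 in UNx.

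The first called region lay in an intron of Rxra, the RXR that pairs with PPARs, LXRs and many other receptors, 9271 bp after the annotated start (chr2:27685980-27686705). Its percentile ranks were 19.6, 25.0 and 28.1 in Sham and 68.6, 56.6 and 64.5 in UNx. Every UNx library was above every Sham library, with means of 24.2 ± 4.30 and 63.2 ± 6.09 (SD, n = 3 each). The difference of 39.0 points (SE 8.75) had a limma adjusted p of 0.0454. The authors' fold enrichment of this peak over the caller's background was 3.10, 3.09 and 3.52 in the Sham lists and 5.31, 4.75 and 5.40 in the UNx lists, each a value of its own list.

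The other called region lay in an intron of Esrrg, the ERR that is abundant in tissues with high oxidative metabolism such as kidney, heart and muscle, 1594 bp after the first coding start and 927 bp from another annotated Esrrg start (chr1:187610397-187611214). Its ranks were 5.91, 44.1 and 37.3 in Sham and 84.5, 66.5 and 65.0 in UNx. The groups did not overlap, and Sham 1 was far below the other Sham libraries; the means were 29.1 ± 20.4 and 72.0 ± 10.9 (SD, n = 3 each). The difference was 42.9 points (SE 9.81, limma adjusted p = 0.0478). Both introns sat close to the threshold: without any 1 of the 6 libraries, neither was called (limma adjusted p of 0.0722 to 0.177 for Rxra and 0.0859 to 0.201 for Esrrg). Of the 15 alternatives that held these regions, each passed in 2, a −log10 q of at least 5 and normal scores. The calls were also lost with all deposited peaks, ranks by fold enrichment, a reciprocal overlap of 50%, no filter on lists, GC-corrected ranks and the replicate number as a block, with limma adjusted p up to 0.241 for Rxra and 0.333 for Esrrg. Direction held in all 15, and the differences without 1 library stayed between 36.3 and 42.3 points for Rxra and between 31.3 and 50.4 for Esrrg.

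The promoters of the 9 receptor genes spanned a wide range of ranks. Taking the strongest region within 1 kb of an annotated coding start, the mean over 6 libraries was 95.9 at Ppard, 94.1 at Nr1h3, 93.8 at Esrra, 85.1 at Esrrg, 80.4 at Ppara, 74.8 at Nr1h2, 69.8 at Rxrb, 65.3 at Rxra and 63.5 at Pparg. Esrra and Esrrg were the only neighbours in that order whose 6 libraries did not overlap (89.0 to 96.9 against 77.3 to 88.7); all other neighbours overlapped. Against the best promoter regions of 13896 coding genes, Ppard stood above 81.4%, Esrrg above 49.3% and Pparg above 22.8%.

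**Figure D2:**
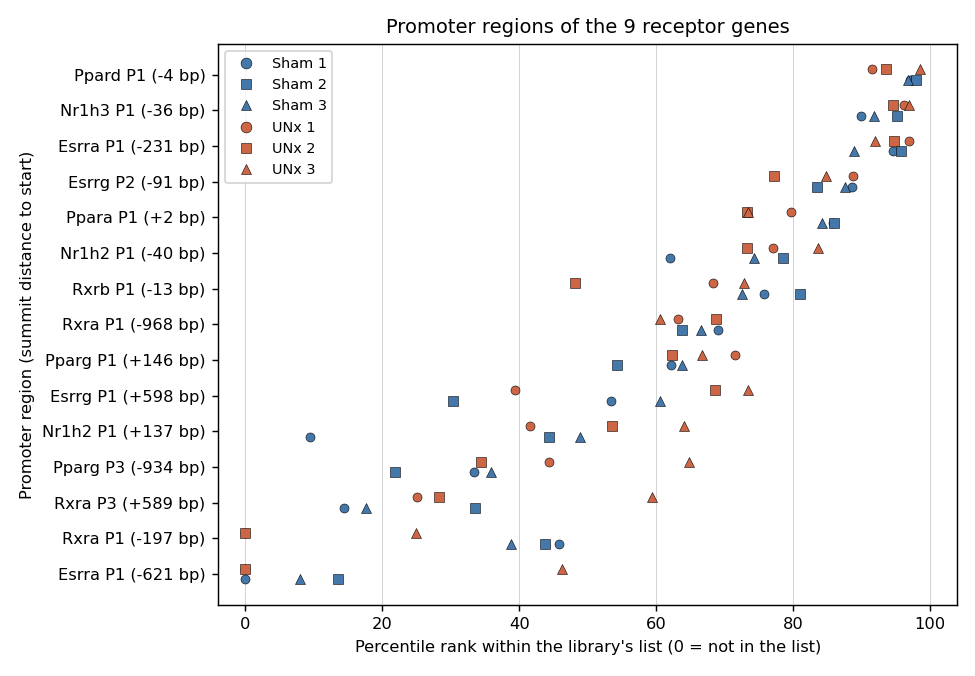
Percentile rank (horizontal) of the 15 promoter regions of the receptor genes in each library, blue for Sham and orange for UNx, with the distance of the strongest summit to the nearest coding start; 0 means not in the list. At Ppara, at the summit 2 bp after the start, the Sham libraries sit from 84.2 to 86.0 and the UNx libraries from 73.3 to 79.7.

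Ppara encodes the fatty acid receptor of oxidative tissues, and its single promoter region (chr15:85734476-85736076) was shared by 3 coding transcripts. The ranks were 85.8, 86.0 and 84.2 in Sham and 79.7, 73.3 and 73.4 in UNx. Every UNx library was below every Sham library, a difference of -9.88 points (SE 3.65), yet the limma adjusted p was 0.160. The promoter of Ppard, which encodes the widely expressed PPAR delta, ranked 97.1, 98.0 and 96.7 in Sham and 91.5, 93.6 and 98.5 in UNx, and the groups overlapped (limma adjusted p = 0.424).

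Pparg encodes the adipogenic PPAR and has 3 annotated promoters. At the first (chr6:115360754-115361973), which gives the 475-residue form, the ranks were 62.2, 54.3 and 63.8 in Sham and 71.5, 62.3 and 66.7 in UNx. At the third (chr6:115420787-115421412), which gives the 505-residue form, they were 33.4, 21.8 and 35.8 in Sham and 44.4, 34.4 and 64.7 in UNx. The first promoter ranked above the third in 6 of 6 libraries, and the groups overlapped at both (limma adjusted p of 0.593 and 0.373). No region had its summit within 1 kb of the middle start, which lies 1.34 kb after the first. The interval of the first promoter region does reach within 1 kb of that middle start.

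At Rxra, 2 regions lay upstream of the first coding starts. The outer one, 968 bp before the start and 207 bp from another annotated Rxra start (chr2:27676029-27676591), ranked 69.1, 63.8 and 66.5 in Sham and 63.2, 68.7 and 60.5 in UNx, with overlap. The inner one, 197 bp before the start (chr2:27676747-27677325, 78.1% G and C), ranked 45.8, 43.7 and 38.8 in Sham and 0, 0 and 24.9 in UNx. All UNx libraries were below all Sham libraries there, a difference of -34.5 points (SE 11.1) with a limma adjusted p of 0.118. All 3 UNx lists as deposited did hold a peak in it, so 0 here means below the strength kept, not closed. A further region at the third annotated promoter, 589 bp after its start, ranked 14.4 to 33.6 in Sham and 25.0 to 59.4 in UNx (limma adjusted p = 0.497), and the outer region stood above both others in 6 of 6 libraries. No region had its summit within 1 kb of the second promoter, though the interval of the region at the third promoter begins within 1 kb of it.

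Rxrb encodes the broadly expressed RXR beta, and its promoter region (chr17:34031177-34032449) also covers the start of Slc39a7, a zinc transporter gene. It ranked 75.7, 81.0 and 72.5 in Sham and 68.3, 48.2 and 72.8 in UNx, where UNx 2 was lowest. UNx 3 overlapped the Sham libraries, and the difference of -13.3 points had a limma adjusted p of 0.264.

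The promoter of Nr1h3, the LXR of liver, fat and macrophages (chr2:91194403-91195541), ranked 89.9, 95.2 and 91.8 in Sham and 96.1, 94.5 and 97.0 in UNx. The groups overlapped and the limma adjusted p was 0.291. Nr1h2, the ubiquitous LXR, had adjacent regions on either side of its first start. The upstream one (chr7:44553800-44554331) ranked 62.1, 78.5 and 74.3 in Sham and 77.0, 73.2 and 83.6 in UNx, and the downstream one (chr7:44553305-44553702) ranked 9.47, 44.4 and 48.8 in Sham and 41.5, 53.6 and 64.0 in UNx. Both overlapped between the operations (limma adjusted p of 0.540 and 0.362), and the upstream region was the higher in 6 of 6 libraries.

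Esrra, the ERR that acts with PGC-1 on mitochondrial genes, had its strongest promoter region 231 bp before the start (chr19:6921471-6922272), at 94.5, 95.7 and 89.0 in Sham and 96.9, 94.8 and 92.0 in UNx. The groups overlapped (limma adjusted p = 0.733). The region with the ERR element, 621 bp before the start (chr19:6922339-6922582), lay in an exon of the neighbouring gene Catsperz and ranked 0, 13.5 and 7.96 in Sham and 0, 0 and 46.2 in UNx. Its element lies 92 bp before the summit, with a second core string 66 bp and an E-box 44 bp before it, and the ranks overlapped.

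At Esrrg the second annotated promoter, 389 kb into the gene, was the stronger one in 6 of 6 libraries. It ranked 88.6, 83.5 and 87.6 in Sham and 88.7, 77.3 and 84.8 in UNx (chr1:187997398-187998343), and it starts the 458-residue form and a 435-residue form. The first promoter, which also starts a 435-residue form, ranked 53.4, 30.3 and 60.5 in Sham and 39.4, 68.7 and 73.4 in UNx (chr1:187608385-187610248). Both overlapped between operations (limma adjusted p of 0.657 and 0.519), whereas the called intron region begins just beyond the first promoter region.

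Of the 15 promoter regions, classed by the basic GENCODE annotation, 3 had an unadjusted p under 0.05, and 0 were called. All 3 were lower in UNx (Ppara, the inner Rxra region and Rxrb). Regions near a receptor start found only in the fuller annotation are counted as distal below. Over all coding promoters, with only the strongest region per gene, 0.383% were called, and 7.49% were lower and 5.73% higher at the unadjusted threshold. The 15 also include weaker regions. Over all 14008 tested regions within 1 kb of a coding start, 14.2% were under that threshold (984 lower and 1011 higher) and 60 were called. Of the 14 annotated promoters of these genes, 12 had a region with a summit within 1 kb.

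The 181 distal regions, over 1 kb from every coding gene start of the basic GENCODE annotation, held both calls. Some of them lie within 1 kb of a receptor gene start found only in the fuller annotation. Among these are the called Esrrg intron (927 bp), an Esrra exon (750 bp) and regions at Ppara (173 bp) and Rxra (233 bp). The Esrra exon ranked 73.9, 69.6 and 74.2 in Sham and 82.5, 85.1 and 86.4 in UNx, without overlap (limma adjusted p = 0.118). The Ppara region was also higher in UNx in mean, 78.0 against 62.9, with overlap (limma adjusted p = 0.215). Promoter and distal counts therefore depend on the annotation, and directions of the other such regions are not given here. Of 138 tested distal regions, 31 had an unadjusted p under 0.05, 23 higher and 8 lower in UNx, against a background of 9.51% higher and 10.1% lower over all distal regions. By gene, over all their tested regions, Ppara had 9 higher and 2 lower of 36, Rxra 7 and 2 of 27, Esrrg 5 and 1 of 43, Esrra 2 and 1 of 17, Ppard 0 and 4 of 18, Pparg 0 and 1 of 5 and Rxrb 0 and 2 of 10. Nr1h2 and Nr1h3 had 0 of 13 and 0 of 5. Among the 83 tested regions inside the receptor genes themselves, 60 had a higher and 23 a lower mean in UNx, with a median difference of 6.21 points, against 37323 higher and 37456 lower over all tested regions. Of the 83, 20.5% had an unadjusted p under 0.05 and 24.1% did not overlap, near the 18.6% and 23.7% of all tested regions. The 83 include 3 regions that were tested only through their presence in UNx. Many windows also hold other genes (7 coding genes at Esrra, 6 at Nr1h2, 0 at Rxra and Pparg), so a distal region here is near a receptor gene and is not shown to act on it.

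**Figure D3:**
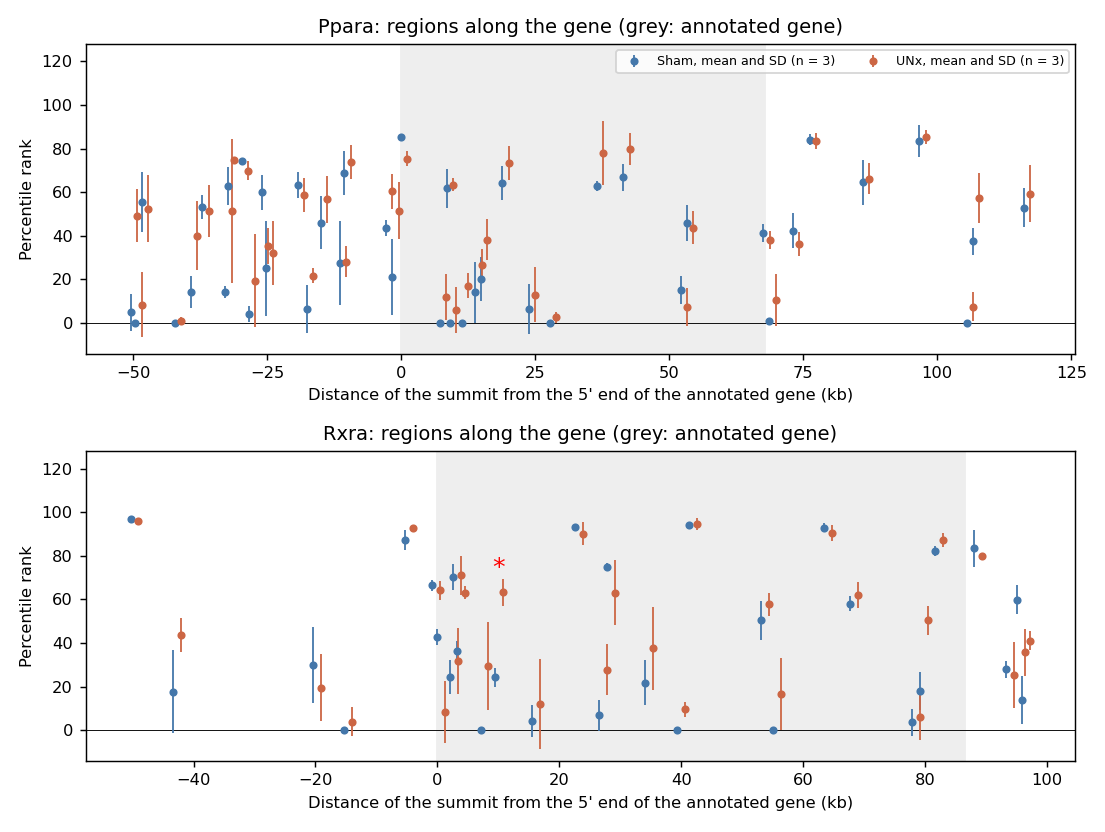
Mean percentile rank with SD (n = 3) of every Ppara and Rxra region in Sham (blue) and UNx (orange), against the distance of its summit from the 5′ end of the annotated gene in kb; grey marks the gene and points of a pair are set slightly apart. The star marks the called Rxra intron, at 24.2 in Sham and 63.2 in UNx.

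At Ppara the distal region of smallest p was 50493 bp upstream of the start (chr15:85684877-85685301). It ranked 0, 0 and 14.8 in Sham and 56.3, 35.1 and 56.6 in UNx, without overlap, a difference of 44.4 points (SE 11.0, limma adjusted p = 0.0604). Sham 1 did hold a peak there as deposited, so its 0 rests on the length of the list. Over the alternatives the difference ran from 19.3 to 51.5 points. This region was at the edge of the window: its summit was 49912 bp from the gene, and the next one outside was 51933 bp away with a mean rank of 19.8. Strongest of the distal Ppara regions was an intron 40903 bp after the start (chr15:85776715-85777455), at 67.8, 72.3 and 60.2 in Sham and 71.3, 84.0 and 84.3 in UNx, with overlap (limma adjusted p = 0.193).

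Around Ppard the order was the other way, with the smallest p at a region lower in every UNx library. It lay in an intron of Zfp523, 44191 bp upstream (chr17:28188282-28188742), and ranked 67.3, 64.5 and 60.9 in Sham and 46.7, 29.3 and 4.56 in UNx. The difference was -37.4 points (SE 10.1, limma adjusted p = 0.0769), and UNx 3 was far below the other UNx libraries. The strongest distal Ppard region, in an exon of Def6 and 5 bp from the start of the noncoding gene AC126937.1 (chr17:28223582-28224515), stood between 94.2 and 98.1 in all 6 libraries (limma adjusted p = 0.776). At Pparg an intron 12933 bp after the third start (chr6:115434679-115435211) ranked 60.2, 54.3 and 48.0 in Sham and 42.3, 22.9 and 37.4 in UNx, without overlap (limma adjusted p = 0.245). The strongest distal Pparg region, 48691 bp beyond the gene, ranked 77.0 to 86.6 in Sham and 67.3 to 82.0 in UNx.

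The strongest distal region of Rxra lay 50441 bp upstream of its start (chr2:27626279-27627242) and stood between 95.5 and 97.0 in all 6 libraries. Its groups did not overlap (95.5, 96.0 and 96.5 in UNx; 96.7, 97.0 and 96.9 in Sham), but the difference was -0.851 points (limma adjusted p = 0.789). Near Rxrb, in the histocompatibility gene cluster, the strongest distal region was also that of smallest p (chr17:34077444-34078027). It ranked 72.5, 76.2 and 59.7 in Sham and 35.7, 54.6 and 37.1 in UNx, so every UNx library was lower, with a difference of -27.0 points (SE 7.77, limma adjusted p = 0.0901).

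Among the LXR genes, the Nr1h2 distal region of smallest p, in an intron of Mybpc2 and 231 bp from the start of the noncoding gene Gm44646 (chr7:44501790-44502045), ranked 53.1, 60.9 and 60.9 in Sham and 34.9, 52.1 and 44.6 in UNx, without overlap (limma adjusted p = 0.342). Its strongest distal region lay in an exon of Spib, at 58.9 to 80.5 in Sham and 71.8 to 75.4 in UNx. Nr1h3 had 1 tested distal region, in an intron of Madd and 658 bp from another annotated Madd start, at 15.1, 17.2 and 0 in Sham and 0, 7.26 and 0 in UNx.

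Around Esrra the distal region of smallest p lay 16072 bp after the start and beyond the gene, 2565 bp from the start of Prdx5, a peroxiredoxin gene (chr19:6905518-6906037). It ranked 16.1, 0.456 and 23.9 in Sham and 47.1, 64.8 and 55.9 in UNx. Every UNx library was higher, with a difference of 42.5 points (SE 10.5, limma adjusted p = 0.0592). The strongest distal Esrra region stood between 93.7 and 98.2 in all 6 libraries. At Esrrg the strongest distal region was an intron 61358 bp after the second start (chr1:188058795-188059757), at 89.9 to 94.1 in Sham and 87.2 to 93.2 in UNx.

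**Figure D4:**
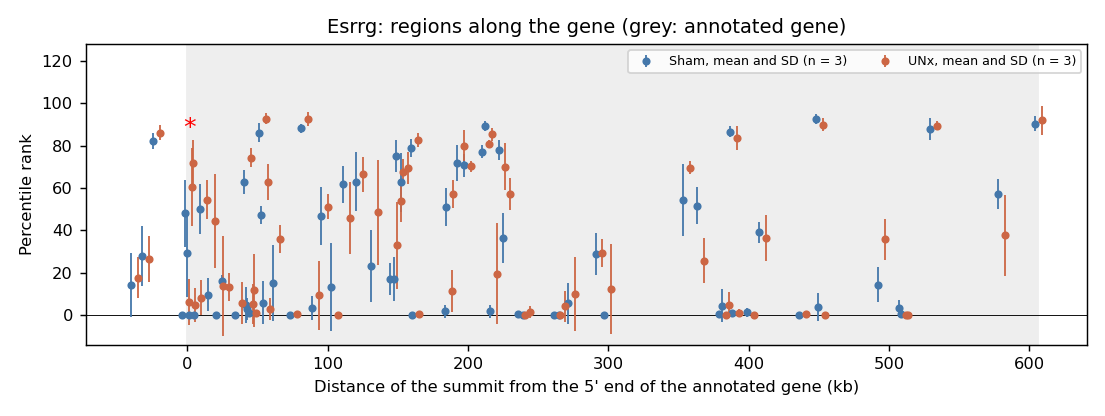
Mean percentile rank with SD (n = 3) of every Esrrg region in Sham (blue) and UNx (orange), against the distance of its summit from the 5′ end of the annotated gene in kb; grey marks the gene. The star marks the called intron near the first promoter, at 29.1 in Sham and 72.0 in UNx, and the second promoter at 389 kb sits at 86.6 in Sham and 83.6 in UNx.

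The number of receptor gene regions present in each list was 170, 165 and 170 in Sham and 176, 175 and 189 in UNx. Every UNx list held more, on average by 11.7 (two-sided exact permutation test, p = 0.1, the smallest that 3 against 3 can give). That surplus depended on the lists. With all deposited peaks it was 28, but those lists differ in length. Sham 2 is the shortest at 77355 peaks, and the others hold 93583 to 100999. Counted over the same regions as above, all deposited peaks gave a surplus of 16.7. With lists of equal length the surplus was 1 with the 20000 strongest, 2.67 when ranked by fold enrichment, 6.33 with a reciprocal overlap of 50% and 7.17 without UNx 3. Over all regions the lists held 70077 to 74154 in Sham and 71738 to 75617 in UNx, which overlapped (exact permutation p = 0.7). At Ppara the counts were 32, 29 and 33 in Sham and 35, 37 and 42 in UNx, and at Rxra 25, 24 and 24 against 27, 26 and 29. Nr1h2 went the other way, with 15, 15 and 14 in Sham and 12, 13 and 13 in UNx, and these 3 genes each reached an exact permutation p of 0.1, unadjusted, with 9 genes compared. At the other 6 genes the counts of the operations overlapped or touched.

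**Figure D5:**
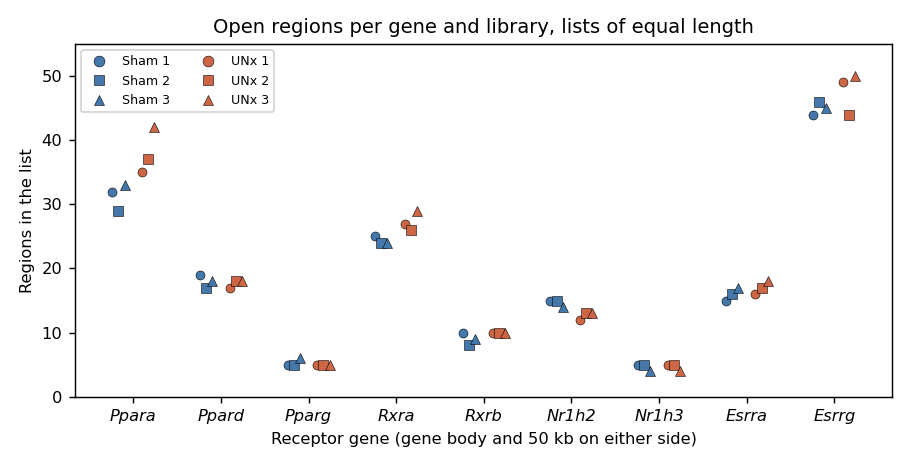
Number of regions present in each library's list (vertical) for each receptor gene, counted over the gene body and 50 kb on either side with lists of equal length, blue for Sham and orange for UNx. Ppara sits at 29 to 33 in Sham and 35 to 42 in UNx, Rxra at 24 to 25 and 26 to 29, and Nr1h2 at 14 to 15 and 12 to 13.

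Present in all 3 UNx lists and in no Sham list were 4 of the 220 receptor gene regions, against 1.04% of all regions; 0 were present only in Sham, against 0.934%. An Rxra intron 6905 bp after the start (chr2:27684027-27684391) ranked 49.0, 8.42 and 30.8 in UNx, and no Sham list held it even with all deposited peaks. Another Rxra intron (chr2:27716149-27716478) ranked 12.5, 5.56 and 10.8 in UNx, and a Ppara intron 10774 bp after the start (chr15:85746351-85747029) ranked 13.4, 23.9 and 14.3. The fourth lay in an exon of Kcnk4, a potassium channel gene, upstream of Esrra and 55 bp from an annotated Kcnk4 start (chr19:6926958-6927222), at 8.15, 5.77 and 29.5. Each of these last 3 had a peak in 1 of the 3 Sham lists as deposited, so their absence from Sham rests on the length of the list.

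The promoters of 96 other genes of the receptor pathways were read in the same fit. limma called 0 of the 87 tested promoter regions, and 21 had an unadjusted p under 0.05, 9 higher and 12 lower in UNx, against 5.73% higher and 7.49% lower of all 13309 tested coding promoters. Those shares are the background for each list that follows. Of 16 family and partner receptors, 2 had an unadjusted p under 0.05 and were higher in UNx, and 0 lower: Nr1i2, the xenobiotic receptor PXR (74.3, 57.6 and 64.6 in Sham; 73.0, 79.8 and 86.2 in UNx) and Esrrb, the third ERR (82.4, 76.0 and 61.7; 83.4, 83.3 and 87.4). Of 18 coactivators and corepressors, 1 was higher and 4 lower. Among these, the corepressor gene Ncor1 ranked 96.8, 95.1 and 96.6 in Sham and 90.9, 93.0 and 90.2 in UNx, without overlap (limma adjusted p = 0.146).

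Of 24 PPAR target genes with a tested promoter region, 3 were higher and 5 lower at the unadjusted threshold. Hadha and Hadhb shared the same region, which is counted for both genes here. Pdk4, a kinase that restrains glucose oxidation, ranked 94.0, 96.2 and 92.6 in Sham and 98.6, 99.4 and 98.0 in UNx, and Acot2, a mitochondrial acyl-CoA thioesterase, ranked 91.9, 89.5 and 90.4 against 83.2, 86.1 and 79.8; neither overlapped (limma adjusted p of 0.130 and 0.136). Of 9 LXR targets, 1 was higher and 0 lower, with the desaturase gene Scd1 at 43.1, 39.5 and 9.08 in Sham and 71.8, 53.9 and 36.4 in UNx, which overlapped (limma adjusted p = 0.267). Srebf1, the lipogenic regulator, ranked 77.9, 81.6 and 77.6 against 75.0, 69.8 and 70.2, without overlap (limma adjusted p = 0.387). In mean, 2 of the 9 were higher and 7 lower in UNx. Without overlap, 0 were higher and 3 lower, against 20% in either direction over all coding promoters. Of 21 ERR targets, 2 were higher and 3 lower, with the creatine kinase gene Ckmt1 at 32.2, 0 and 7.03 against 56.0, 59.9 and 44.9 (limma adjusted p = 0.0783) and the ATP synthase gene Atp5a1 at 93.4, 95.4 and 93.5 against 79.5, 89.2 and 90.9 (limma adjusted p = 0.137). The median differences of the 5 lists ran from -2.20 to 0.931 points, against -0.190 over all coding promoters.

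The promoters whose 6 ranks lay closest to those of each receptor gene, by Euclidean distance over the 6 libraries, were Alyref2 for Ppara (4.67 points), Fancf for Ppard (2.38), Proca1 for Pparg (4.89), Mrps5 for Rxra (6.28), Rce1 for Rxrb (8.84), Eif2s3x for Nr1h2 (5.05), 3110082I17Rik for Nr1h3 (0.800), Slc6a19 for Esrra (2.90) and Ank for Esrrg (4.49). How many promoters lie close depends on the rank: within 10 points there were 3174 for Ppard and 2203 for Nr1h3, but 3 for Rxrb and 15 each for Pparg and Rxra.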

How the data were processed

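ATAC-seq libraries of microdissected S1 tubules (3 Sham, 3 UNx) were deposited as 1 narrowPeak list each. Per the submitters' processing notes, the tools were cutadapt 3.4, Bowtie, SAMtools, Picard and MACS2 2.2.7.1 and the build mm10 (GRCm38); settings and the filter on peaks are not given in the sources used here. Per summit the authors deposited a fold enrichment (ratio), a −log10 p and −log10 q value and a display score. Replicates were not pooled.

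Summits sharing an interval were taken as 1 peak at the strongest of them; chromosomes 1 to 19, X and Y were kept. Lists were cut to 77355 peaks by −log10 q, converted to percentile ranks, and merged where intervals overlapped by at least 1 bp. Regions in at least 3 of 6 lists were tested with limma 3.58.1 (R 4.3.3; two-sided; eBayes with robust and trend options; threshold 0.05 after Benjamini-Hochberg adjustment over all tested regions). The step was tested on simulated data. Presence per list was compared by exact permutation. Promoter and distal classes used the starts of the basic GENCODE annotation, with distances measured from peak summits and not from the edges of regions. Starts over 500 bp apart were separate promoters. Each list gene was represented by its strongest region within 1 kb of a start. Nothing was normalized between lists beyond rank.

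Named regions were, per receptor gene, every region within 1 kb of its starts, the distal regions of highest mean rank and of smallest p, regions past the threshold and regions present after 1 operation only; per pathway list, the 2 genes of smallest p; and the promoter nearest in rank. A gene that the rule selects is not reported here. The members and lists were chosen with earlier results of these data known. Alternatives were the length of the lists, the rank column, a −log10 q of at least 5, a reciprocal overlap of 50%, normal scores, no filter on lists, GC-corrected ranks, the replicate number as a block, windows of 10 kb and 2.5 kb, and leaving out each library.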

Additional observations from a re-analysis of the deposited data

How the results depend on the processing

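Over all regions, the 589 calls became 22 with all deposited peaks, 2 with the 20000 strongest, 3 when ranked by fold enrichment, 143 with a reciprocal overlap of 50%, 1583 on normal scores, 2 without the filter on lists, 2 with GC-corrected ranks, and 4 to 76 without 1 library; the cause was not tested. The 2 calls at receptor genes became 0 with all deposited peaks, the 20000 strongest, fold enrichment, no filter, GC-corrected ranks and without any 1 library (0 to 0), 1 with the 50% overlap (neither intron, whose adjusted p there was 0.0775 for Rxra and 0.0595 for Esrrg) and 5 on normal scores (both introns and 3 others), and were 2, both introns, with a −log10 q of at least 5 and within 10 kb. The replicate number as a block gave 56 calls over all regions and 0 at receptor genes, and 0 and 0 with GC-corrected ranks as well. Where a Sham and a UNx library carried an equal number, their deviations correlated at 0.00819, -0.100 and -0.0496. Other pairings were not compared, so these values cannot decide whether the numbers mark matched libraries. Receptor gene regions present after 1 operation only numbered 4, then 7 with all deposited peaks, 0 with the 20000 strongest and 5 to 8 without 1 library (8 without Sham 3, 7 without UNx 2 and 7 without UNx 3). The surplus of regions per UNx list, 11.7, ranged from 1 to 28 over the list settings and from 7.17 to 14.2 without 1 library. The 28 came from all deposited peaks, where the lists differ in length. Pathway promoter calls went from 0 to 1 with the 50% overlap and 2 on normal scores. Regions counted as receptor promoters went from 15 to 23 at 2.5 kb.

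Over 45 named regions and promoters, 635 alternative values kept direction and side of the threshold, 26 lost it (the Rxra and Esrrg introns), 5 passed it on normal scores (near Esrra, Ppara and Ppard, and at Ckmt1 and Pdk4), and 13 changed sign. Those were at the Esrra strongest distal region (-1.55 by fold enrichment, -0.416 with GC-corrected ranks and again -0.416 with the block, -0.178 to 2.11 without 1 library), the Esrra promoter (-1.30 by fold enrichment, -0.552 to 2.82 without 1 library), the Esrra ERR-element region (-7.17 to 15.9 without 1 library, lowest without UNx 3), the second Esrrg promoter (-5.57 to 0.159 without 1 library), the distal Esrrg (2.08) and Pparg (1.18) regions and Pdk4 (-2.05) by fold enrichment, the Spib exon (-0.213 to 10.6 without 1 library) and the outer Rxra region (0.630 with all deposited peaks). Depth is unknown, so weak regions at 0 cannot be called closed.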
